A study of Bos taurus with 6 samples.

Results

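Mitosis and cyclin genes are the cyclins, the kinases they activate, and the proteins that condense chromosomes, build the spindle, check its attachment and start anaphase. Of 50 genes listed under this heading, 36 were found through the symbols of the array's annotation, with 50 probe sets in all, and 12 of the 36 genes had several. Each probe set is a group of short oligonucleotides summarised as a single log2 expression value. CCND1, a cyclin of the G1 phase, and CENPA, the histone of centromeres, each had a single value on all arrays, near or at the floor of the scale at 2.12, and were left untested. The other 34 genes, on 48 probe sets, were tested among 8189 genes and 18937 probe sets. For 14 listed genes (CDK6, CDC25A, CDC25B, CDKN1B, NEK2, TTK, FZR1, PTTG1, CENPE, KIF11, PRC1, TOP2A, SMC2 and MKI67) no probe set carried the symbol, and they were not analysed here. Where a gene had several probe sets, the one with the highest mean stands for it unless another is named.

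Late degenerative bovine embryos were compared with blastocysts. Both were produced by in vitro fertilization, had compacted into morulae, and were classified on day 8, when degenerative embryos had not completed the transition from morula to blastocyst and blastocysts showed an inner cell mass and a blastocoele. Each of 3 degenerative pools and 3 blastocyst pools held 20 embryos from several cows and bulls, was amplified, and was hybridized to its own Affymetrix Bovine Genome Array. The pools of each group carry the letters A, B and C.

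A cell enters mitosis when cyclin B activates CDK1, which WEE1 restrains and CDC25 phosphatases release. Aurora and Polo-like kinases then direct the centrosomes and the spindle, and the BUB and MAD proteins hold back anaphase until each chromosome is attached. CDC20 and the anaphase-promoting complex end the hold by marking cyclins and securin for destruction, which frees separase to open the cohesin rings. Embryos at this age rely on rapid divisions that add cells to the inner cell mass and the trophectoderm, and messages for many of these proteins are also stored in the oocyte.

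Degenerative pool A stood apart from the other arrays. Its Pearson's r across the probe sets tested was 0.933 to 0.938 with the other 5 arrays, which among themselves had 0.949 to 0.994. The median of the tested values of an array was 6.35 to 6.48, and 27.4% to 28.6% of its values were within 0.01 of the floor. Differences are therefore also given without degenerative pool A.

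The mean was higher in degenerative embryos for 26 of the 34 genes and lower for 8, whereas 54.5% of all genes tested were higher and 45.5% lower. A pool mixes whole embryos, so a different share of dividing cells and a different amount of RNA per cell cannot be told apart. The median log2 difference (degenerative embryos minus blastocysts, as throughout) was 0.32 over the members and 0.02 over all genes. Among the genes with a mean of at least 10 on the log2 scale, 20 of 25 members were higher, against 47.0% of 2445 genes. Without degenerative pool A the members were 23 higher and 11 lower, with a median of 0.15 against 0.01 over all genes, of which 53.4% were higher and 46.6% lower. Without both A pools they were 21 higher and 13 lower with a median of 0.10, while 49% of all genes were higher and 48.6% lower. The members' median was thus smaller without degenerative pool A and smaller again without both A pools. No value was shared between the ranges of the groups for 7 genes that were higher (PLK1, KIF2C, ESPL1, CCNE1, KIF20A, AURKA and BUB1B) and 1 that was lower (WEE1), 8 of 34 in all, against 8.99% higher and 9.16% lower of all genes. Without degenerative pool A, 9 were higher, with CDK4 and CKS2 added, and 2 lower, with KIF23 added, without overlap, against 16.5% and 16.6% of all genes. In the RefSeq annotation of ARS-UCD2.0 the 8 genes without overlap over all pools are spread over 8 chromosomes, with PLK1 on chromosome 25, KIF2C on 3, ESPL1 on 5, CCNE1 on 18, KIF20A on 7, AURKA on 13, BUB1B on 10 and WEE1 on 15.

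No mitosis or cyclin gene passed limma at an adjusted p of at most 0.15, where 4 of 18937 probe sets (0.0211%) and 3 of 8189 genes (0.0366%) passed, and the smallest adjusted p of a member was 0.532. At an unadjusted limma p under 0.05, 3 of the 34 genes (ESPL1, AURKA and KIF2C) were higher and 0 lower in degenerative embryos, against 4.68% and 5.65% of all genes tested. With the letter of the pool as a block in limma, KIF2C alone of the 34 was under this level, and ESPL1 and AURKA were not. Over all genes, 875 of 8189 were under it with the block, counting both directions. SAM, the test of the study's methods, called 0 of the members at a false discovery rate of 15%, against 67 probe sets (0.354%) and 32 genes (0.391%) over the array. Without degenerative pool A, limma again called no member, with a smallest adjusted p of 0.385, while its calls over all probe sets numbered 42 (0.222%), and over all genes 18 (0.22%). At an unadjusted p under 0.05, 2 members were then higher (ESPL1 and BUB1B) and 0 lower, against 5.2% and 7.06% of all genes.

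Degenerative pool A held the highest of the 6 values for 23 of the 34 genes, against 33.2% of all genes, and the lowest for 4, against 32.7%. As the median over the members of each pool's distance from the mean of the 6 pools, degenerative pool A stood at 0.76, degenerative pool B at 0.02 and degenerative pool C at -0.12. Blastocyst pools A, B and C stood at -0.19, -0.19 and -0.18. The degenerative pools were thus spread over a wider range than the blastocyst pools, and the median SD within the group was 0.56 for degenerative embryos and 0.22 for blastocysts (n = 3 pools each), against 0.41 and 0.23 over all genes. Taken by letter, the median difference was 0.83 between the A pools, 0.18 between the B pools and 0.05 between the C pools, with 26, 22 and 20 of the 34 genes higher in the degenerative pool. In 12 genes the degenerative pool was higher for all 3 letters and in 2 it was lower, against 19.2% and 19.9% of all genes.

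**Figure D1:**
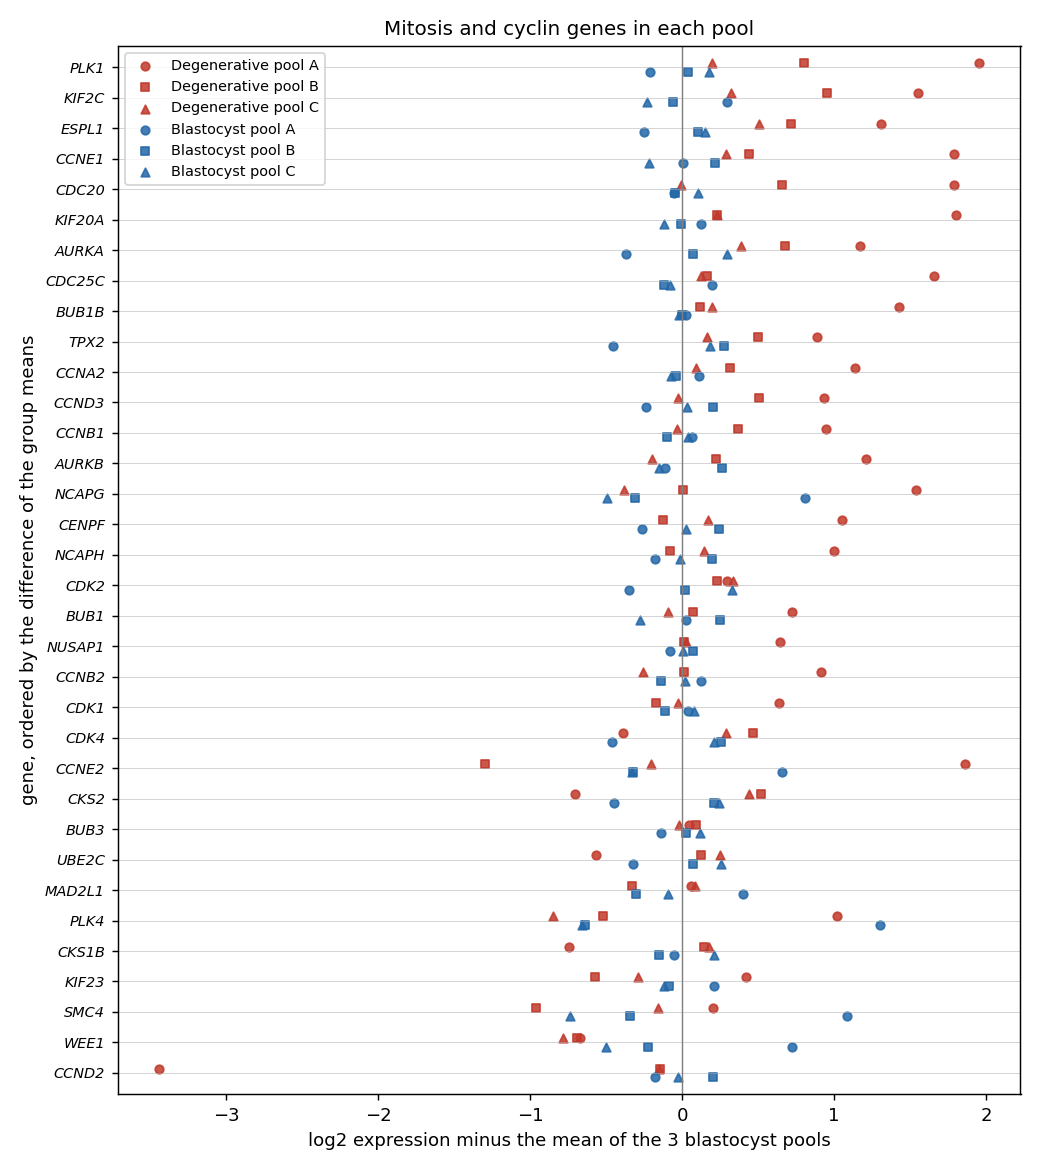
Log2 expression of each of the 34 tested genes in each pool minus the mean of the 3 blastocyst pools (horizontal axis), with genes ordered by the difference of the group means (vertical axis), degenerative pools in red above blastocyst pools in blue, and circles, squares and triangles for pools A, B and C. The red circles, degenerative pool A, lie farthest right for 23 genes and farthest left for 4, of which CCND2 is at the left edge.

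Among the cyclins, 6 of 7 tested genes were higher in the degenerative mean, with a median difference of 0.43 (0.17 without degenerative pool A). CCNB1, the cyclin that drives entry into mitosis, was at 13.29, 12.71 and 12.31 in degenerative pools A, B and C, against 12.41, 12.24 and 12.38 in blastocyst pools A, B and C. Degenerative pools A and B were above all blastocyst pools and pool C was within their range, and the difference was 0.43, with a standard error (SE) of 0.27 (limma, adjusted p = 0.702). CCNA2, a cyclin of S phase and early mitosis, was at 10.99, 10.17 and 9.94 in the degenerative pools, against 9.96, 9.81 and 9.78 in the blastocyst pools, and its difference of 0.52 became 0.20 without degenerative pool A. CCNB2, a second B-type cyclin, averaged 10.81 ± 0.61 in degenerative embryos and 10.58 ± 0.13 in blastocysts (SD, n = 3 each), and its difference of 0.22 turned to -0.12 without degenerative pool A.

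CCNE1, which with CDK2 starts DNA replication, was at 8.86, 7.51 and 7.36 in the degenerative pools, against 7.08, 7.28 and 6.85 in the blastocyst pools. The groups did not overlap, with a difference of 0.84 (limma, SE 0.46, adjusted p = 0.657), or 0.36 without degenerative pool A. Its second probe set, a dimmer one, differed by 0.67 (0.24 without degenerative pool A) and overlapped. CCNE2, the related E-type cyclin, did not share this order, since degenerative pool A was the highest at 10.31 and degenerative pool B the lowest at 7.16, with degenerative pool C at 8.25, against 9.11, 8.13 and 8.12 in the blastocyst pools. Its difference of 0.12 became -0.75 when degenerative pool A was left out.

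The D-type cyclins, which link growth signals to the start of the cycle, had differences of opposite sign. CCND2 was at 7.89, 11.19 and 11.18 in the degenerative pools, against 11.16, 11.54 and 11.31 in the blastocyst pools. Only degenerative pool A was far below the rest, and the difference of -1.25 (limma, SE 1.02, adjusted p = 0.737) was -0.15 without it. This was the one difference beyond 1 in either direction among the members, where 6.29% of all genes were higher and 4.68% lower by that much. CCND3 averaged 9.21 ± 0.48 in degenerative embryos and 8.74 ± 0.22 in blastocysts (SD, n = 3 each), a difference of 0.47 that was 0.24 without degenerative pool A.

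The group means of the cyclin-dependent kinases differed by 0.12 to 0.29. CDK1, the kinase of mitotic entry, was at 12.08, 11.27 and 11.41 in the degenerative pools, against 11.48, 11.33 and 11.52 in the blastocyst pools. Degenerative pool A was above and pool B below all blastocyst pools, and the difference of 0.15 (limma, SE 0.24, adjusted p = 0.840) was -0.10 without degenerative pool A. CDK2, the partner of the E-type and A-type cyclins, differed by 0.29 (0.11 without blastocyst pool A) and CDK4, the partner of the D-type cyclins, by 0.12. In CDK4 both A pools were lower than the other 4, at 10.49 in degenerative embryos and 10.41 in blastocysts, and without degenerative pool A its groups did not overlap, with a difference of 0.37. Without blastocyst pool A the difference of CDK4 was -0.11.

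CKS1B and CKS2, small proteins that bind cyclin-dependent kinases, were lowest in degenerative pool A. CKS1B was at 11.40, 12.29 and 12.32 in the degenerative pools, against 12.09, 11.99 and 12.35 in the blastocyst pools, a difference of -0.14 that was 0.16 without degenerative pool A. CKS2 was at 12.51, 13.74 and 13.65, against 12.77, 13.42 and 13.46 in the blastocyst pools. Its difference was 0.08 over all pools and 0.48 without degenerative pool A, when both remaining degenerative pools were above all blastocyst pools.

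The enzymes that set the phosphate on CDK1 had differences of opposite sign. WEE1, the kinase that holds CDK1 inactive, was at 7.52, 7.50 and 7.41 in the degenerative pools, against 8.92, 7.97 and 7.70 in the blastocyst pools. All degenerative pools were below all blastocyst pools, among which pool A was the highest, and the difference was -0.71 (limma, SE 0.34, adjusted p = 0.628), or -0.74 without degenerative pool A and -0.35 without blastocyst pool A. CDC25C, the phosphatase that removes this phosphate, averaged 10.56 ± 0.87 in degenerative embryos and 9.91 ± 0.17 in blastocysts (SD, n = 3 each). Its difference of 0.65 was 0.14 without degenerative pool A, where it was 11.56.

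Of the mitotic kinases tested, AURKA, AURKB and PLK1 were higher in the degenerative mean and PLK4 was lower. AURKA, which matures centrosomes and assembles the spindle, was at 12.40, 11.91 and 11.62 in the degenerative pools, against 10.86, 11.30 and 11.52 in the blastocyst pools. The groups did not overlap, although degenerative pool C was close to blastocyst pool C, and the difference was 0.75 (limma, SE 0.28, unadjusted p = 0.0467, adjusted p = 0.580), or 0.53 without degenerative pool A. Without blastocyst pool A, where AURKA was lowest, the difference was 0.56, and without both A pools it was 0.35. In its second probe set degenerative pool A was instead the lowest of all, at 8.73, while degenerative pools B and C, at 10.94 and 10.35, were above the blastocyst pools at 9.79, 9.21 and 9.79. Both probe sets of AURKA were thus high in degenerative pools B and C, and in pool A the first was high and the second low.

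PLK1, which acts from centrosome maturation to cytokinesis, was at 11.64, 10.48 and 9.88 in the degenerative pools, against 9.47, 9.72 and 9.86 in the blastocyst pools. It had the largest positive difference among the members at 0.98 (limma, SE 0.49, adjusted p = 0.633), a 1.98-fold higher mean, but degenerative pool C was barely above blastocyst pool C, and without degenerative pool A the difference was 0.50. AURKB, the kinase of the chromosomal passenger complex, averaged 10.19 ± 0.72 in degenerative embryos and 9.78 ± 0.23 in blastocysts (SD, n = 3 each), with a difference of 0.41 that was 0.01 without degenerative pool A. PLK4, the kinase that starts centriole duplication, was at 8.53, 6.99 and 6.67 in the degenerative pools, against 8.82, 6.87 and 6.85 in the blastocyst pools. Its values followed the letters and not the groups, with both A pools above the other 4 and a difference of -0.12.

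**Figure D2:**
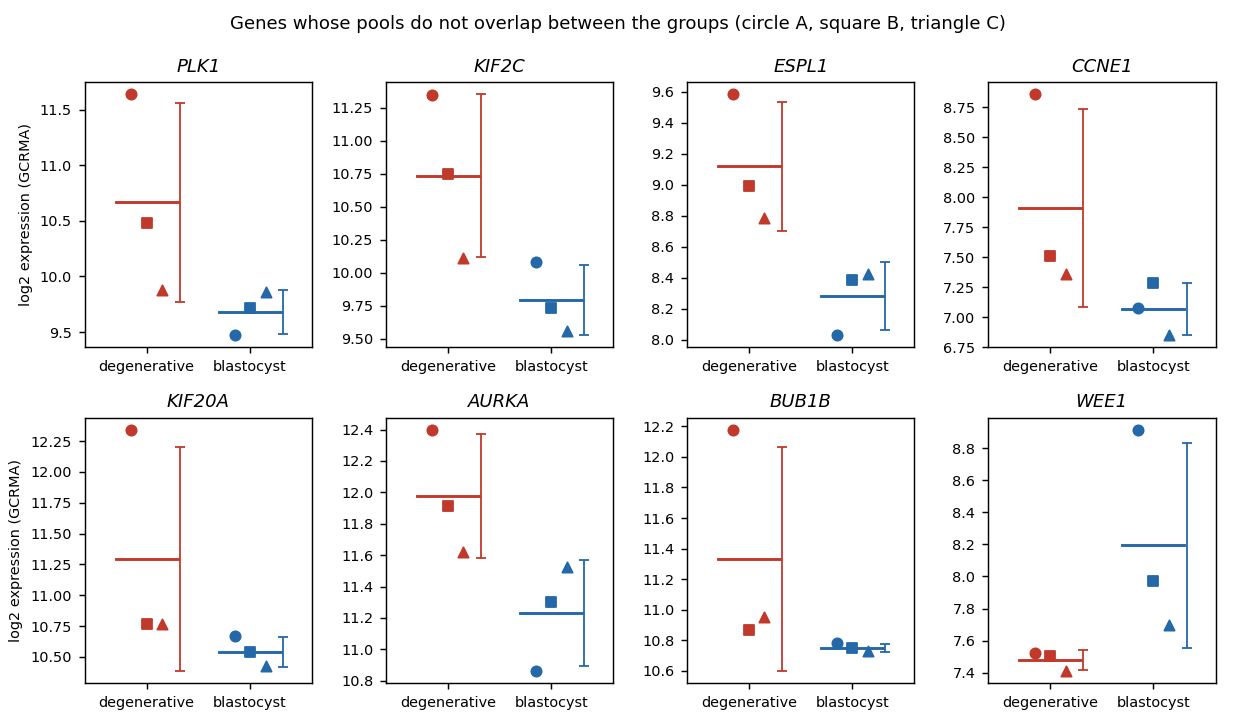
Log2 expression from GCRMA (vertical axis, not starting at 0) in degenerative embryos (red, left) and blastocysts (blue, right) for the 8 genes whose pools did not overlap, with a point for each pool, a line for each group mean and a bar for 1 SD (n = 3 pools). Degenerative pool A is the highest point in the 7 genes other than WEE1, and in WEE1 blastocyst pool A is the highest.

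The spindle checkpoint was represented by 4 genes, with a median difference of 0.14. BUB1B, which inhibits CDC20, was at 12.18, 10.87 and 10.95 in the degenerative pools, against 10.78, 10.75 and 10.73 in the blastocyst pools. All degenerative pools were above all blastocyst pools, which lay within a very narrow range (SD 0.03, n = 3), and the difference was 0.58 (limma, SE 0.39, adjusted p = 0.722). Without degenerative pool A it was 0.16 (limma, SE 0.04, adjusted p = 0.385), a small step against a small spread. BUB1, which recruits other checkpoint proteins to kinetochores, differed by 0.23 and by -0.01 without degenerative pool A. BUB3, the partner of both BUB kinases, averaged 13.11 ± 0.06 in degenerative embryos and 13.08 ± 0.13 in blastocysts (SD, n = 3 each). MAD2L1, which binds CDC20, averaged 12.86 ± 0.23 in degenerative embryos and 12.93 ± 0.36 in blastocysts. In these last genes the difference was smaller than the spread between pools.

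Of the anaphase genes, ESPL1 had the smallest limma p among the members. It encodes separase, the protease that opens cohesin, and was at 9.58, 8.99 and 8.78 in the degenerative pools, against 8.03, 8.38 and 8.43 in the blastocyst pools. The groups did not overlap, and the difference kept most of its size when degenerative pool A was left out, at 0.84 (limma, SE 0.25, unadjusted p = 0.0229, adjusted p = 0.532) over all pools and 0.61 (limma, SE 0.17, adjusted p = 0.420) without it. Without both A pools the difference of ESPL1 was 0.48. Its second probe set lay near the floor, between 2.17 and 2.58, and gave no further measure. CDC20, the activator of the anaphase-promoting complex, was at 13.45, 12.32 and 11.66 in the degenerative pools, against 11.61, 11.62 and 11.77 in the blastocyst pools. Degenerative pool C was within the blastocyst range, and the difference of 0.81 (limma, SE 0.49, adjusted p = 0.686) was 0.33 without degenerative pool A. UBE2C, the ubiquitin-conjugating enzyme of that complex, did not follow CDC20, at 11.30, 12.00 and 12.12 in the degenerative pools, against 11.55, 11.94 and 12.12 in the blastocyst pools, and it was lowest in the A pools of both groups.

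Among the spindle motors and microtubule proteins, 4 of 5 were higher in the degenerative mean and all 5 had their highest value in degenerative pool A. KIF2C, a kinesin that takes microtubules apart at kinetochores, was at 11.35, 10.75 and 10.11 in the degenerative pools, against 10.08, 9.73 and 9.56 in the blastocyst pools. The groups did not overlap, though degenerative pool C was close to blastocyst pool A, and the difference was 0.94 (limma, SE 0.36, unadjusted p = 0.0499, adjusted p = 0.580), or 0.64 without degenerative pool A. Its second probe set differed by 0.88 (0.29 without degenerative pool A and 1.54 without blastocyst pool A) and was higher in the degenerative pool of each letter, at 8.48, 7.43 and 5.97, against 7.72, 5.93 and 5.59 in the blastocyst pools. With the letter as a block in limma, KIF2C had the smallest adjusted p of the members, 0.495.

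KIF20A, a kinesin of the central spindle, was at 12.34, 10.77 and 10.77 in the degenerative pools, against 10.67, 10.54 and 10.42 in the blastocyst pools, without overlap and with a difference of 0.75 (0.23 without degenerative pool A). Its second probe set overlapped, and the difference there was 0.41. That was -0.16 without degenerative pool A, 0.95 without blastocyst pool A and 0.37 without both A pools. This probe set was higher in the degenerative pool of each letter, by 0.49, 0.61 and 0.14 for A, B and C. KIF23, another kinesin of the central spindle, was at 12.34, 11.35 and 11.64 in the degenerative pools, against 12.13, 11.84 and 11.80 in the blastocyst pools. It thus ran the other way in pools B and C, with a difference of -0.15 over all pools and of -0.43 without degenerative pool A, where its groups did not overlap. TPX2, which activates AURKA on the spindle, differed by 0.52 (0.33 without degenerative pool A and 0.29 without blastocyst pool A), and NUSAP1, which bundles spindle microtubules, by 0.23 (0.02 without it). CENPF, a large kinetochore protein and the one centromere gene tested, averaged 11.80 ± 0.61 in degenerative embryos and 11.44 ± 0.25 in blastocysts (SD, n = 3 each), with a difference of 0.37 that was 0.02 without degenerative pool A.

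Of the condensin genes, which compact chromosomes, SMC4 and NCAPG were highest in both A pools. SMC4, a core subunit, was at 10.26, 9.10 and 9.90 in the degenerative pools, against 11.14, 9.72 and 9.32 in the blastocyst pools, and its difference of -0.31 was 0.23 without blastocyst pool A, its highest value. A second probe set of SMC4 was at 7.50, 4.11 and 4.32, against 6.36, 3.86 and 3.86 in the blastocyst pools. Its difference of 0.62 was -0.48 without degenerative pool A and 0.35 without both A pools. A last one, near the floor, differed by 0.26 (-0.09 without degenerative pool A and -0.03 without both A pools). NCAPG, another subunit, averaged 10.86 ± 1.01 in degenerative embryos and 10.48 ± 0.70 in blastocysts (SD, n = 3 each), with both A pools the highest, at 12.01 in degenerative embryos and 11.28 in blastocysts. NCAPH, also a subunit, averaged 10.63 ± 0.57 in degenerative embryos and 10.28 ± 0.19 in blastocysts (SD, n = 3 each), and its difference of 0.35 was 0.03 without degenerative pool A. It was highest in degenerative pool A and lowest in blastocyst pool A. Its other probe sets were highest in both A pools, with differences of 0.13 and 0.18 (-0.45 and -0.48 without degenerative pool A). These were 0.47 and 0.63 without blastocyst pool A, and -0.11 and -0.04 without both A pools.

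**Figure D3:**
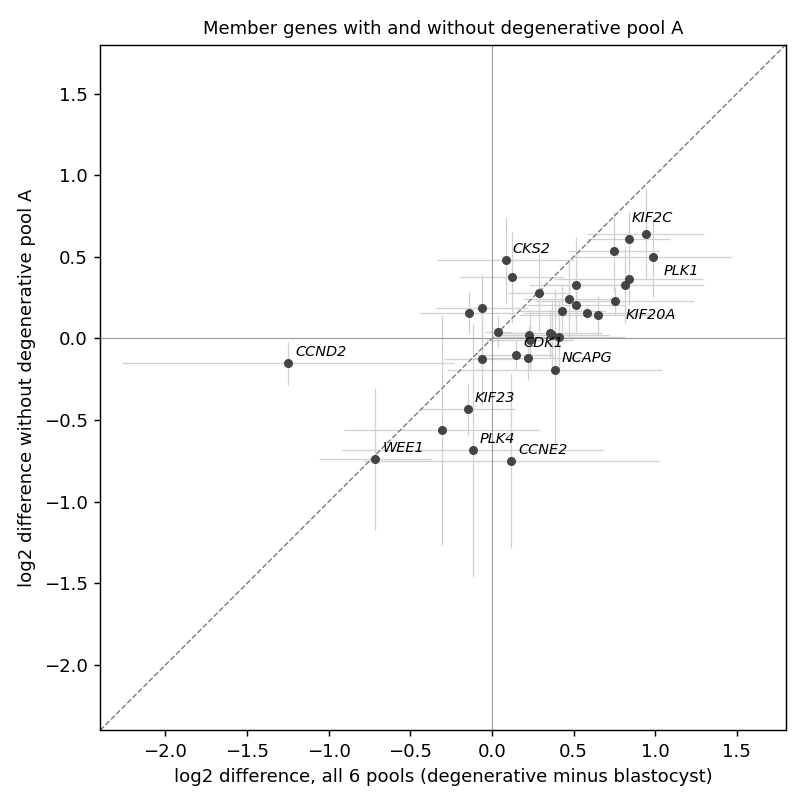
Log2 difference of each of the 34 genes (degenerative minus blastocyst) with all 6 pools (horizontal axis) and without degenerative pool A (vertical axis), with bars for the standard errors from limma and a dashed line of equality. Most points with a positive difference lie below the line, CCND2 moves from -1.25 to -0.15, and WEE1 stays close to the line, at -0.71 and -0.74.

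Some of these genes were ordered by the letter of the pool. Both A pools were above the other 4 in 17 of the 48 member probe sets (35.4%), against 13.3% of all probe sets tested, and below them in 4 (8.33%), against 13.8%. Among the 34 genes this held for 7 above (CCNB2, CCNE2, CDC25C, PLK4, KIF23, SMC4 and NCAPG) and for 4 below (CCND2, CDK4, CKS2 and UBE2C), against 12.1% and 16.7% of all genes. The other 10 probe sets above were further probe sets of a gene. In BUB1, for example, the second probe set was at 4.46, 2.84 and 2.72 in the degenerative pools, against 6.60, 2.90 and 2.70 in the blastocyst pools, while the first was highest in degenerative pool A alone. The labels do not say what the letters share.

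**Figure D4:**
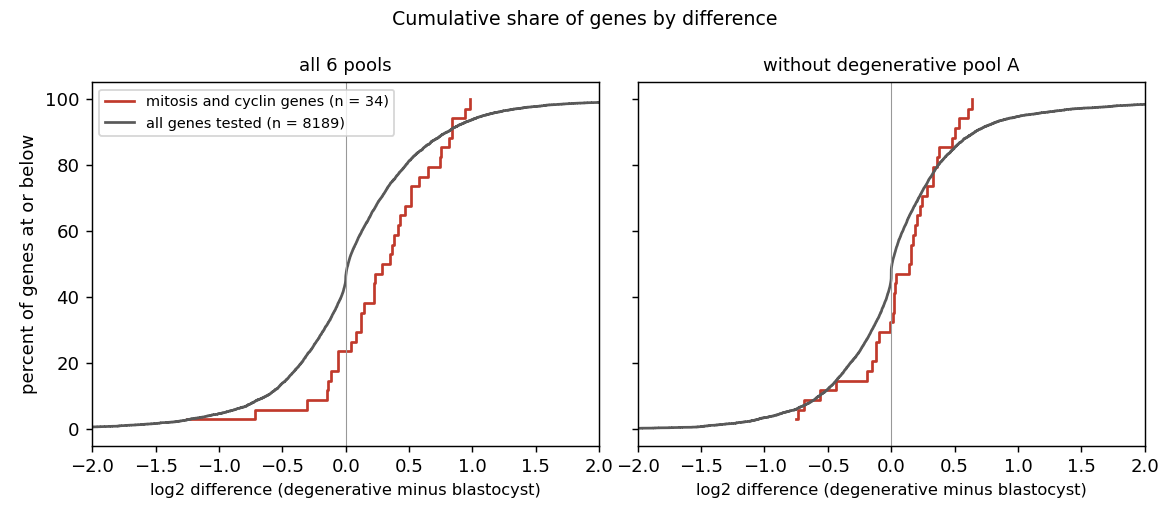
Cumulative percent of genes (vertical axis) by log2 difference, degenerative minus blastocyst (horizontal axis, shown between -2 and 2), for the 34 mitosis and cyclin genes in red and all 8189 genes tested in gray, with all 6 pools on the left and without degenerative pool A on the right. The red line lies right of the gray one around the middle on the left, with medians of 0.32 and 0.02, and closer to it on the right, with medians of 0.15 and 0.01.

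Further genes of the cell cycle came from lists of other cyclins, other kinases and inhibitors, the anaphase-promoting complex, kinetochore and passenger proteins, other spindle and cytokinesis proteins, and condensin and cohesin. Of 176 genes listed, 115 were tested. limma passed 0 of them after adjustment, with a smallest adjusted p of 0.479, and SAM called 0. Of the 115, 75 were higher and 40 lower in the degenerative mean, with a median difference of 0.16. Without degenerative pool A 61 were higher and 54 lower, with a median of 0.01. Without both A pools 68 were higher and 46 lower, with a median of 0.055, while 49% of all genes were higher and 48.6% lower. At an unadjusted limma p under 0.05, 4 were higher and 3 lower, against the 4.68% and 5.65% of all genes given above. The ranges of the groups lay apart for 15 that were higher and 3 that were lower, against 8.99% and 9.16% of all genes, and without degenerative pool A for 19 that were higher and 13 that were lower, against 16.5% and 16.6%. Degenerative pool A held the highest value for 63 of the 115 and the lowest for 19, against 33.2% and 32.7% of all genes.

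Other spindle and cytokinesis proteins were 23 higher and 6 lower, with a median difference of 0.30. Without degenerative pool A they were 15 higher and 14 lower, with a median of 0.01. Without both A pools they were 18 higher and 10 lower, with a median of 0.07. SPAG5, a protein of spindle poles with the smallest p of the list, was at 9.43, 9.30 and 8.60 in the degenerative pools, against 7.90, 8.29 and 8.02 in the blastocyst pools. The groups did not overlap, and its difference of 1.04 (limma, SE 0.26, unadjusted p = 0.0123, adjusted p = 0.492) was 0.88 without degenerative pool A. NUDC, a partner of dynein, differed by 0.91 (0.56 without it), and KIF4A, a kinesin that binds chromosomes, by 1.06 (0.52 without it). Kinetochore and passenger proteins were 16 higher and 13 lower, or 13 higher and 16 lower without degenerative pool A. Without both A pools they were 15 higher and 14 lower. CDCA8, borealin of the passenger complex with AURKB, was at 11.70, 11.68 and 11.43 in the degenerative pools, against 10.49, 11.26 and 10.91 in the blastocyst pools, a difference of 0.71. SKA2, which ties kinetochores to microtubules, was lower without overlap, with a difference of -0.90, and CENPT, a centromere protein, was higher by 1.30 (0.75 without degenerative pool A).

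Other kinases and inhibitors were 15 higher and 10 lower, or 17 higher and 8 lower without degenerative pool A. Without both A pools they were 18 higher and 7 lower. CDKN1C, an imprinted inhibitor of cyclin-dependent kinases, was at 4.48, 5.87 and 6.13 in the degenerative pools, against 7.87, 7.86 and 7.36 in the blastocyst pools. All degenerative pools were below, and the difference was -2.20 (limma, SE 0.50, adjusted p = 0.479), or -1.70 without degenerative pool A. CDK7, the kinase that activates CDK1 and CDK2, was at 10.49, 10.48 and 10.41, against 11.25, 10.75 and 10.87 in the blastocyst pools, a difference of -0.50, whereas PLK2, a Polo-like kinase of G1, was higher by 1.08 (0.72 without degenerative pool A). Of the other cyclins 6 were higher and 5 lower, or 4 higher and 7 lower without both A pools and likewise without degenerative pool A alone. The difference of CCNK, a partner of transcription kinases, was 0.66 (0.39 without that pool), that of CCNT1 0.56 (0.17 without it) and that of CCNI -0.18 (-0.18 without it and -0.083 without blastocyst pool A). The anaphase-promoting complex had 6 higher and 6 lower without both A pools, and 7 higher and 5 lower with and without degenerative pool A. Its subunit ANAPC5 differed by 0.29 (0.32 without that pool), UBE2S, a ubiquitin-conjugating enzyme that works with it, by 0.33 (0.22 without it) and its subunit ANAPC7 by 0.69 (0.28 without it). Condensin and cohesin had 8 higher and 1 lower, with a median difference of 0.16. Without both A pools they had 7 higher and 2 lower, with a median of 0.089. Without degenerative pool A alone they had 5 higher and 4 lower, with a median of 0.01. NIPBL, the cohesin loader, differed by 0.996 (0.51 without that pool), NCAPD2, a condensin subunit, by 0.33 (0.081 without it) and RAD21, a cohesin subunit, by 0.16 (0.040 without it).

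Markers of the cells in the pools differed beside these genes. All 7 trophectoderm markers tested of 12 listed were lower in the degenerative mean, with a median difference of -1.01 (-0.51 without degenerative pool A) and a sum of linear signals of 58700 to 72800 in degenerative pools and 77300 to 106000 in blastocyst pools. Without both A pools this median was -0.31. By letter it was -2.45 between the A pools, 0.003 between the B pools, where 4 of 7 markers were higher, and -0.37 between the C pools. The 3 genes tested of 10 listed as inner cell mass markers (POU5F1, SOX2 and KLF4) were higher, with a median difference of 0.51 (0.31 without degenerative pool A). Their sums were 18600 to 32400 in degenerative pools and 15600 to 17100 in blastocyst pools. Whether these genes are limited to the inner cell mass in such embryos was not tested. A sum of linear signals weighs the brightest genes most, and KRT18 was the brightest of the 7 trophectoderm markers. KRT18 was at 15.17 to 15.52 in degenerative pools and 15.26 to 15.65 in blastocyst pools, so the groups overlapped. POU5F1 was at 12.65 to 13.32 in degenerative pools and 12.34 to 12.60 in blastocyst pools, while CDX2 and NANOG had no named probe set here. limma passed 0 of these genes after adjustment.

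All 7 oocyte transcripts tested of 12 listed were higher in the degenerative mean, with a median difference of 0.91 (0.50 without degenerative pool A), at low sums of 255 to 417 in degenerative pools and 142 to 234 in blastocyst pools. Only 1 of the 7 had a mean of at least 5 on the log2 scale, and the smallest difference was 0.014. GDF9 and BMP15, which define oocytes, had a single value near or at the floor on all arrays. Without degenerative pool A, 1 gene of this list, ZP4, a zona pellucida protein, passed limma (adjusted p = 0.102), at 3.56 and 3.41 in degenerative pools B and C, against 2.12 in each blastocyst pool. Markers of cumulus and granulosa cells were 4 higher and 4 lower with sums of 1940 to 4110 in degenerative pools and 1380 to 2050 in blastocyst pools. PTX3, a protein of the cumulus matrix, was at 2.12, 8.36 and 7.22 in the degenerative pools, against 2.25, 2.12 and 4.27 in the blastocyst pools. It was high in degenerative pools B and C, and its difference of 3.02 (limma, adjusted p = 0.700) was 4.91 without degenerative pool A (limma, adjusted p = 0.321), the largest of the 8189 genes tested without that pool. INHBA, a subunit of inhibins and activins, differed by 2.51 (1.37 without blastocyst pool A) and CYP19A1, the aromatase of granulosa cells, by -2.08 (-3.14 without blastocyst pool A), while FOXL2, AMH and INHA were at or near the floor. Spermatozoa markers were 2 higher and 2 lower with sums of 1270 to 1740 in degenerative pools and 1930 to 2070 in blastocyst pools, and PRM2, TNP2 and ODF1 were at or near the floor. Hypoblast markers were 2 higher and 2 lower, with sums of 13800 to 17600 in degenerative pools and 13900 to 18300 in blastocyst pools. The part of these markers in the differences of mitosis and cyclin genes was not tested.

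Control probe sets along transcripts differed between the groups for some genes and not for others. The probe set for the start of eIF-4E was at 2.56 to 3.70 in degenerative pools and 4.42 to 6.56 in blastocyst pools, and the one for its end at 12.36 to 12.83 in degenerative pools and 13.01 to 13.16 in blastocyst pools. For actin the end was at 4.48 to 7.14 in degenerative pools and 7.56 to 8.84 in blastocyst pools, again without overlap. For the start of ef1a the groups overlapped, at 11.99 to 12.40 in degenerative pools and 12.21 to 14.76 in blastocyst pools. GAPDH overlapped at the start, at 11.85 to 12.16 in degenerative pools and 11.41 to 12.28 in blastocyst pools, and was higher without overlap at the end, at 14.32 to 14.68 in degenerative pools and 14.11 to 14.30 in blastocyst pools. Their part in the differences above was not tested.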

How the data were processed

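RNA of each pool was amplified and hybridized by the authors, who deposited log2 expression values from GCRMA (2.14.1, as named in the submitters' processing notes): a background correction that uses probe sequence, quantile normalization, and median polish. Of 24036 probe sets, 20 controls and 5079 with a single value throughout were dropped. The other 18937 were fitted with limma 3.58.1 under R 4.3.3, with p-values adjusted by Benjamini and Hochberg over all of them and a threshold of 0.15, which the study's methods set for SAM. SAM itself was rewritten from its description. The fits were tested on simulated data with planted differences larger than any of the members'. The simulated noise was independent between pools, with no outlying pool and no shared deviation by letter. That test thus cannot show how the fits perform on differences of the size seen here. Genes are named by GEO's platform annotation, with symbols brought up to date in the ARS-UCD2.0 gene table. Arrays have no read depth, and the number of pools limits precision.

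The members and lists were chosen with earlier results of these data known. Values in every pool are given for members whose groups do not overlap, for the 6 largest differences in each direction, and for CCNB1, CDK1, CCNA2, AURKA, PLK1 and CDC20. Up to 3 genes with the smallest limma p are named per further list. Other pool values, and the marker genes named, were chosen after they were seen. Promoter motifs were not analysed here.

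Pools were taken as replicates, and p-values measure only the spread between them. Pools of the same letter deviated together from their group means (r = 0.373 for A, 0.180 for B, 0.275 for C). The limma fit was therefore repeated with the letter as a block, although the labels do not say what the letters share. All other limma values, and SAM, compared the groups without pairing. With the letter as a replicate block, limma called 0 probe sets. The alternatives were centring each array, a filter on dim probe sets, an intensity trend, leaving out pools, the block, SAM, and the mean of a gene's probe sets.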

Additional observations from a re-analysis of the deposited data

How the results depend on the processing

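No alternative called a mitosis or cyclin gene, and the smallest adjusted p of a member gene over all of them was 0.259. Over all probe sets, limma called 4, against 1 with each array centred on its median, 1 with the filter on dim probe sets, 0 with the intensity trend, 0 without both A pools, 0 with the replicate block, 67 with SAM and 1 to 42 when a single pool was left out. Genes without overlap numbered 8, against 4 with the mean of a gene's probe sets, 14 without both A pools and 8 to 13 without a single pool (13 without degenerative pool C), where fewer pools overlap more rarely. Over all genes, 8.99% were higher and 9.16% lower without overlap, against 16.5% and 16.6% without degenerative pool A. A larger count without some pools is thus no result about the members. The 8 member genes with a lower degenerative mean became 13 without both A pools. The sign was the same under all 11 alternatives for 16 genes and turned for 18. The filter on dim probe sets and SAM are not among these 11. The intensity trend and the block leave the difference as it was, so they could not turn a sign. Nor could the mean of the probe sets for a gene with a single one. Without both A pools the difference was -0.059 for CCNB2, -0.42 for CCNE2, -0.082 for CDK1, 0.13 for CKS1B, -0.044 for AURKB, -0.033 for BUB3, 0.078 for MAD2L1, 0.027 for UBE2C, -0.11 for CENPF, -0.02 for NUSAP1 and -0.058 for NCAPH. With the mean of the probe sets it was -0.25 for BUB1 and 0.19 for SMC4. Over the single pools left out it ran from -0.12 to 0.46 for CCNB2, from -0.75 to 0.83 for CCNE2, from -0.10 to 0.30 for CDK1, from -0.11 to 0.37 for CDK4, from -0.30 to 0.16 for CKS1B, from -0.14 to 0.48 for CKS2, from -0.69 to 0.53 for PLK4, from -0.012 to 0.40 for BUB1, from -0.032 to 0.10 for BUB3, from -0.22 to 0.14 for MAD2L1, from -0.23 to 0.19 for UBE2C, from -0.43 to 0.064 for KIF23, from -0.68 to 0.23 for SMC4 and from -0.19 to 0.79 for NCAPG. The cause was not tested.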
